A study of Neurospora crassa with 8 samples.

Results

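The 6 genes described here carry mating identity and pheromone signalling in the filamentous fungus *Neurospora crassa*. They are the mating type genes *mat A-1* (NCU01958), *mat A-2* (NCU01959) and *mat A-3* (NCU01960), the pheromone precursor gene *ccg-4* (NCU02500), and the pheromone receptor genes *pre-1* (NCU00138) and *pre-2* (NCU05758). They were listed by their identifiers for their known roles, by a rule that uses no measured value, although earlier results of these data were known when the set was proposed. All 6 are among the 9733 genes of the count files. Strand-specific RNA-seq came from mycelia of *wt* strain 74-OR23-1VA (FGSC 2489) in liquid culture, which were kept dark for 24 h and then given light for 0, 30, 60 or 120 min. Further RNA-seq libraries came from mycelia grown for 48 h in constant light, from the same *wt* strain and from strains with the genotypes Δ*wc1*::hyg and Δ*wc2*::hyg. In these, a gene of the white collar complex, the blue light receptor and transcription factor of *Neurospora*, is replaced by a hygromycin resistance marker. A further sample of the *wt* strain, polysome fractions pooled from mycelia collected over 22 h in the dark, is used only for the list of noncoding RNAs. Each condition has 1 library, so no difference has a replicate check and no p-value was calculated.

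*N. crassa* has 2 mating types, A and a, which differ at a single locus on chromosome I. The sequences at this locus are so unlike each other that they are called idiomorphs, and a haploid strain carries only 1 of them. The strain FGSC 2489 is of mating type A. MAT A-1, an α-box transcription factor, is required for mating identity and for the rejection of mycelia of the other mating type in vegetative fusion, while MAT A-2 and the HMG-box protein MAT A-3 act after fertilization. A mating type A strain expresses the peptide pheromone encoded by *ccg-4*, which was first found as a clock-controlled gene, and a mating type a strain the pheromone MFA-1. PRE-1 resembles the a-factor receptor Ste3 of *Saccharomyces cerevisiae* and serves mating type A cells in sensing MFA-1. PRE-2 resembles Ste2 and senses the CCG-4 pheromone in mating type a cells. Both are G protein-coupled receptors, and the signal runs through heterotrimeric G proteins to the MAK-2 kinase cascade and the transcription factor PP-1. The gene *mfa-1* was not analysed here.

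The RefSeq annotation of the NC12 genome places *mat A-3* on chromosome I from 1857194 to 1858469, *mat A-2* from 1859093 to 1860424 and *mat A-1* from 1860692 to 1862194. The gene *ccg-4* lies on the same chromosome from 2531832 to 2533997, *pre-1* on chromosome III from 2752660 to 2756067, and *pre-2* on chromosome VII from 3727404 to 3729156. None of the 6 overlaps another gene of that annotation. The nearest neighbors are 140 bp from *pre-1*, 243 bp from *ccg-4* and 268 bp between *mat A-1* and *mat A-2*.

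The sense strand counts added up to between 9725970 and 21422091 reads on genes in the strand-specific libraries, and the constant light counts to between 22215526 and 26210537 reads. Counts were divided by the library total and are given as reads per 1000000 reads (CPM). The smallest signal taken as detectable, 3 reads, was between 0.114 and 0.248 CPM. Intervals are exact 95% intervals that cover counting error only. A difference was called when the ratio of normalized counts exceeded 2-fold in either direction and the higher library held at least 10 reads. In the library labelled Δ*wc1*, the first of 2 exon lines of *wc-1* had 3 reads against 88 in *wt*, but the second had 1287 against 244, so that the whole-gene count was 1290 against 332. In the library labelled Δ*wc2*, *wc-2* had 141 reads against 605 in *wt*, and its 4 exon lines had 53, 3, 54 and 31 reads against 230, 303, 70 and 2. Neither library thus lacks reads over the whole of the gene named in its label, the *wc-1* total is above *wt*, and both libraries are named by their labels below. The hyphal genes *hex-1* and *so* summed to between 868 and 2307 CPM in the 7 libraries.

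In the dark, *pre-1* was the most abundant of the 6 genes with 43 sense reads, followed by *mat A-1* with 8, *pre-2* with 6 and *mat A-2* with 1 read. No read was counted on *mat A-3* or *ccg-4*. Per length, these counts correspond to 1.03 reads per kilobase and 1000000 reads (RPKM) for *pre-1*, 0.433 for *mat A-1* and 0.278 for *pre-2*, against a median of 8.09 RPKM over the 9215 genes with a RefSeq length. Thus 21.7% of these genes had a lower level than *pre-1*, 17.9% a lower level than *mat A-1* and 16.4% a lower level than *pre-2*. The mating genes of the vegetative mycelium lay at the low end of the expression range.

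**Figure D1:**
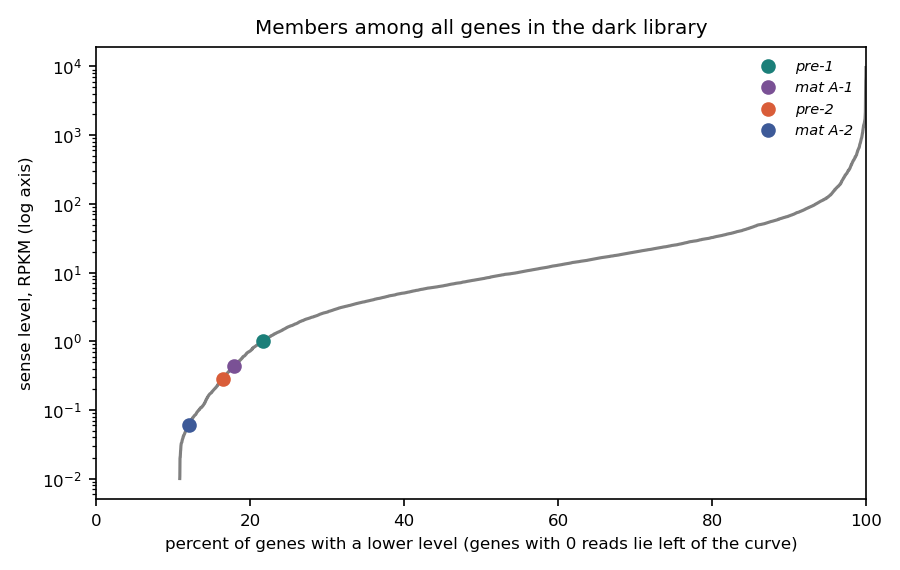
Sense level per length (RPKM, log axis) of all genes in the dark library, sorted, with *pre-1*, *mat A-1*, *pre-2* and *mat A-2* marked at the percent of genes that lie below them. The 3 detected genes sit between 16.4% and 21.7%, and *mat A-2* rests on 1 read.

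Per length, the level of *pre-1* was 2.37 times that of *mat A-1* in the dark (95% interval 1.10 to 5.84). The same ratio was 1.87 (0.986 to 3.86), 1.76 (1.03 to 3.20) and 1.43 (0.806 to 2.69) after 30, 60 and 120 min of light. The difference exceeded counting error in the dark and at 60 min only. *pre-1* lay above *pre-2* by 3.69 times in the dark (1.56 to 10.6), and at 120 min by 1.34 times with an interval of 0.785 to 2.36 that includes equal levels. *mat A-1* and *pre-2* could not be ordered, since their ratio per length was between 0.933 and 1.75 in the strand-specific libraries, and each interval includes 1. Below these 3 genes, the levels of *mat A-2*, *mat A-3* and *ccg-4* lay at or under the floor and were not ordered.

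Over the 4 strand-specific libraries together, *mat A-2* had 2 sense reads, 1 in the dark and 1 at 60 min. *mat A-3* had a single sense read, at 30 min. *ccg-4* had 2, 1 at 30 min and 1 at 120 min. Such totals of 0 to 2 sense reads were found for 1006 of the 9733 genes (10.3%). In the constant light libraries, *mat A-2* and *mat A-3* had no read in any of the 3 strains, and *ccg-4* had 5 reads in *wt*, 2 in the library labelled Δ*wc1* and 2 in that labelled Δ*wc2*. The genes that act after fertilization and the pheromone gene were therefore not detectable at this depth, apart from 5 reads on *ccg-4* in constant light, which is 0.191 CPM. The sources used here do not state whether strand was used for the constant light counts, so these reads may come from either strand. No time course of these 3 genes can be given.

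**Figure D2:**
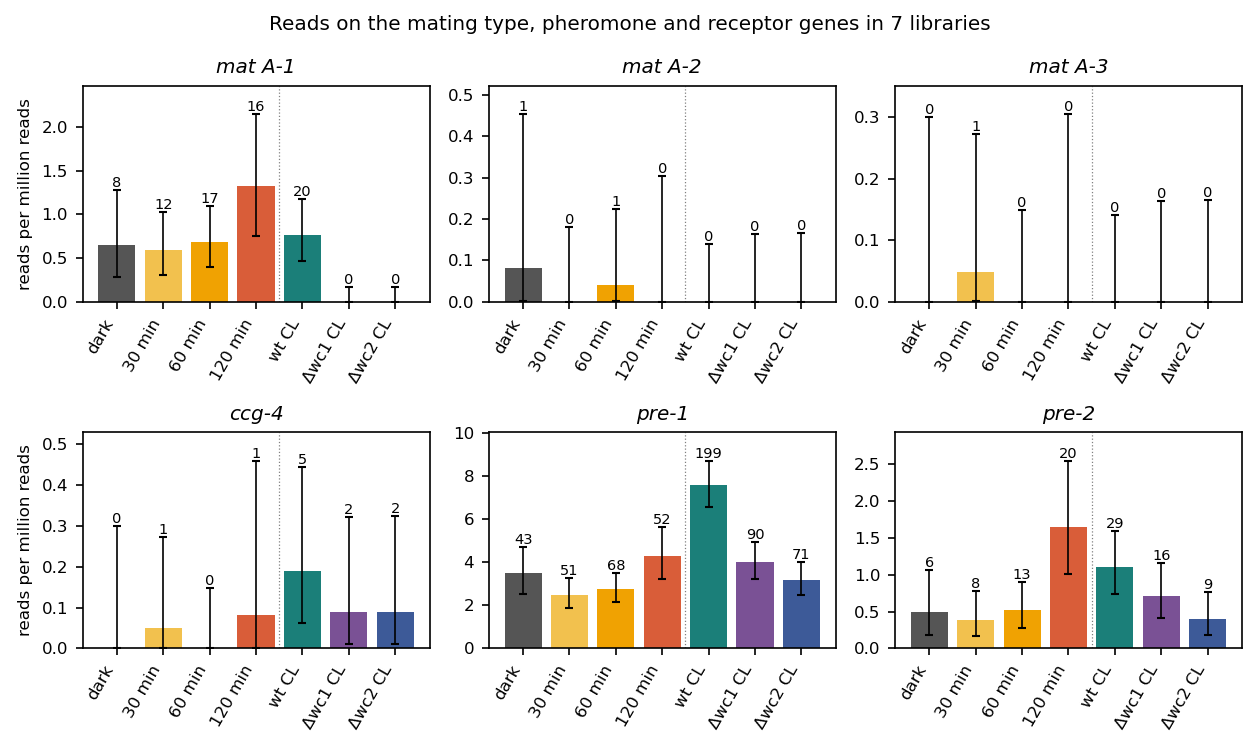
Level in CPM of each of the 6 genes in the 4 strand-specific libraries (sense strand) and, right of the dotted line, in the constant light (CL) libraries of *wt* and of the strains labelled Δ*wc1* and Δ*wc2*. Bars are single libraries, error bars exact 95% intervals of the count and numbers the reads; *mat A-1* has 20 reads in *wt* and 0 in both other strains, and *mat A-2*, *mat A-3* and *ccg-4* stay at 5 reads or fewer.

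On the antisense strand, the dark library held no read on any of the 6 genes. *ccg-4* had 4 antisense reads at 30 min and 0 at 60 and 120 min, which is more than its 2 sense reads in all 4 libraries. More antisense than sense reads over the 4 libraries were found for 1049 genes, or 10.8% of all genes. *pre-1* had 1 antisense read at 60 min, and *mat A-1* and *pre-2* had 1 each at 120 min, whereas *mat A-2* and *mat A-3* had none. With fewer than 10 antisense reads in every library, 0 of the 6 genes could be compared between light and dark. Among the genes with at least 10 antisense reads, those over 2-fold higher than in the dark made up 21.9%, 26.6% and 21.6% after 30, 60 and 120 min of light, and those over 2-fold lower 9.04%, 4.88% and 4.45%. Over all genes, 20.3% had at most 1 antisense read in the 4 libraries, as had 5 of the 6 mating genes.

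The first question of the design is how these genes respond to light. For *mat A-1*, 8 reads were counted in the dark library, and 12, 17 and 16 after 30, 60 and 120 min of light, or 0.651, 0.588, 0.687 and 1.32 CPM. The 120 min library was the highest, and the 30 and 60 min libraries did not differ from the dark beyond counting error. Relative to the dark, the 3 light libraries had ratios of 0.904 (0.340 to 2.55), 1.06 (0.432 to 2.83) and 2.03 (0.820 to 5.48). The last value exceeded 2-fold, but its interval includes no difference, and it lay at the threshold: under the 4 other normalizations it was 2.02, 2.05, 1.98 and 1.99, with the call lost under the last 2, median-of-ratios and TMM factors. Relative to 30 min, the 120 min library was higher by 2.25 times (0.997 to 5.20).

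The receptor gene *pre-2* had 6 reads without light, and 8, 13 and 20 reads after 30, 60 and 120 min, or 0.488, 0.392, 0.525 and 1.65 CPM. It was highest at 120 min, and neither the 30 nor the 60 min library differed from the dark beyond counting error. Its ratios to the dark were 0.804 (0.244 to 2.81), 1.08 (0.382 to 3.45) and 3.38 (1.31 to 10.3) in the same order. Relative to 30 min and 60 min, the 120 min library was higher by 4.21 times (1.78 to 11.1) and by 3.14 times (1.49 to 6.88). Over all genes above the minimum, 9.46% were over 2-fold higher and 4.35% over 2-fold lower at 120 min than at 30 min, and 3.8% and 2.99% than at 60 min. Of the mating genes, *pre-2* was called higher in both and *mat A-1* relative to 30 min. The 3 intervals of *pre-2* at 120 min lie above 1, but none lies wholly above 2.

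The counts of *pre-1* were 43, 51, 68 and 52 reads in the libraries of 0, 30, 60 and 120 min, which is 3.50, 2.50, 2.75 and 4.29 CPM. It was lowest at 30 min and highest at 120 min. The ratios to the dark of 0.715 (0.467 to 1.10), 0.785 (0.528 to 1.18) and 1.23 (0.804 to 1.88) include no difference. Between the light libraries, 120 min was higher than 30 min by 1.72 times (1.14 to 2.58) and higher than 60 min by 1.56 times (1.07 to 2.28).

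With 2 of the 6 genes above the minimum of 10 reads at 30 min and 3 at 60 min, 0 were called at either time. Over all genes above the minimum, 5.65% were over 2-fold higher and 7.25% over 2-fold lower at 30 min, and 6.27% and 5% at 60 min. With TMM factors, 59.1% instead of 43.8% of all called genes were higher at 30 min. At 120 min, 2 of 3 genes were called higher, *mat A-1* and *pre-2*, beside 4.62% of all genes, and 0 lower beside 2.23%. Both calls rest on at most 20 reads, and neither held when the whole interval had to exceed 2-fold. The conidiation genes *con-6*, *con-10*, *con-8*, *con-13* and *eas* summed to 2707, 11839, 21742 and 12339 CPM in the libraries of 0, 30, 60 and 120 min, with 3 of the 4 genes above the minimum called higher at each light time, and their part in these values was not tested. The sexual development genes *asd-1*, *fsd-1* and *per-1* summed to 423, 284, 322 and 309 CPM, of which *asd-1* made up most, and the perithecial melanin gene *per-1* had between 1 and 4 reads in each strand-specific library.

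**Figure D3:**
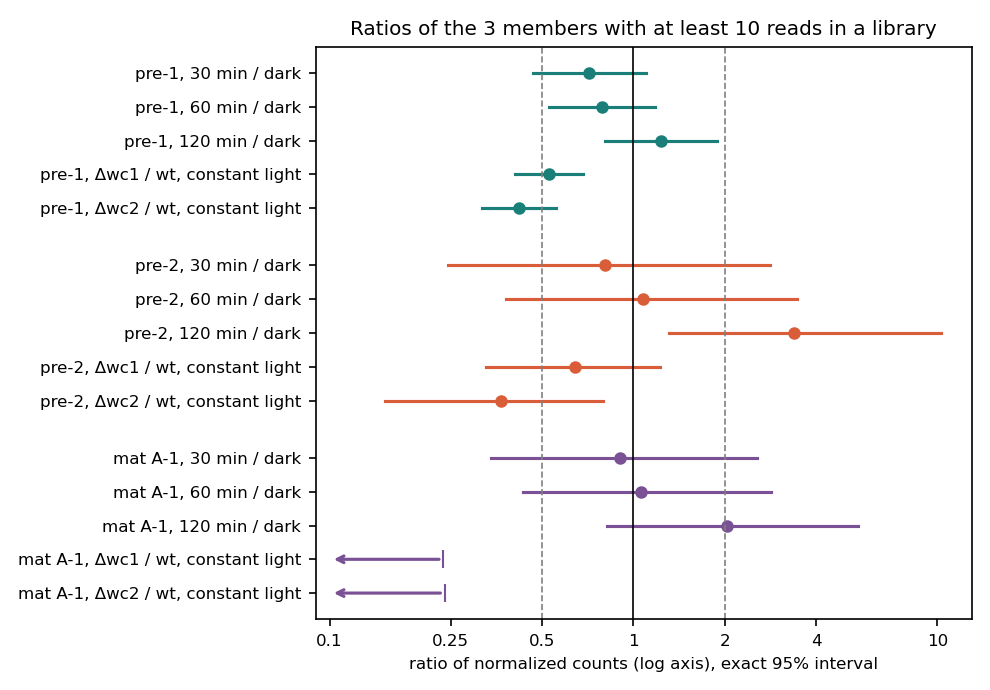
Ratios of normalized counts (log axis) for *pre-1*, *pre-2* and *mat A-1*, with exact 95% intervals as lines, for each light time against dark and for the libraries labelled Δ*wc1* and Δ*wc2* against *wt* in constant light. Dashed lines mark 2-fold in either direction and arrows a count of 0; of the light ratios, only that of *pre-2* at 120 min (3.38) has an interval that lies wholly above 1.

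The second question is how the levels in constant light depend on the white collar complex. *mat A-1* had 20 reads in *wt*, 0 in the library labelled Δ*wc1* and 0 in the library labelled Δ*wc2*. The *wt* reads were spread over all 5 exon lines of the gene, with 4, 4, 6, 5 and 1 reads in the order of the file. With the counting error of both libraries, the upper bound of the ratio to *wt* was 0.237 in the library labelled Δ*wc1* and 0.239 in that labelled Δ*wc2*, so that the level was at least 4.23-fold and at least 4.18-fold lower, respectively. Of the 8441 genes with at least 10 reads in *wt*, 6 had no read in the library labelled Δ*wc1*, 7 had none in that labelled Δ*wc2*, and 1 had none in both, which was *mat A-1*.

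The reads of the surrounding chromosome did not show such a gap. The 10 counted genes on either side of the mating type genes span 77.8 kb together with them, and all 20 had reads in each library, with at least 40 in *wt*, at least 45 in the library labelled Δ*wc1* and at least 15 in that labelled Δ*wc2*. Their ratios to *wt* were between 0.491 and 3.78 in the former and between 0.265 and 3.90 in the latter. The adjacent gene NCU01961, 1315 bp from *mat A-3*, had 107 reads in *wt*, 45 in the library labelled Δ*wc1* and 24 in that labelled Δ*wc2*. The gene NCU01957, 3403 bp from *mat A-1* on the other side, had 40, 55 and 15 reads. Both flanking genes were over 2-fold lower in the library labelled Δ*wc2*, with ratios of 0.265 (0.162 to 0.415) for NCU01961 and 0.442 (0.227 to 0.819) for NCU01957, and neither was at 0. They were the only ones of the 20 genes over 2-fold lower there. In the library labelled Δ*wc1*, only NCU01961 was over 2-fold lower, with a ratio of 0.491. The labels give no mating type for the 2 knockout strains, so that a strain without the mat A idiomorph and a strain without its transcripts cannot be told apart from the counts of *mat A-1*. The mating type of these strains may thus differ from that of *wt*, beside the white collar genes. Its part in the ratios of *pre-1*, *pre-2* and *ccg-4* to *wt* given below was not tested.

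**Figure D4:**
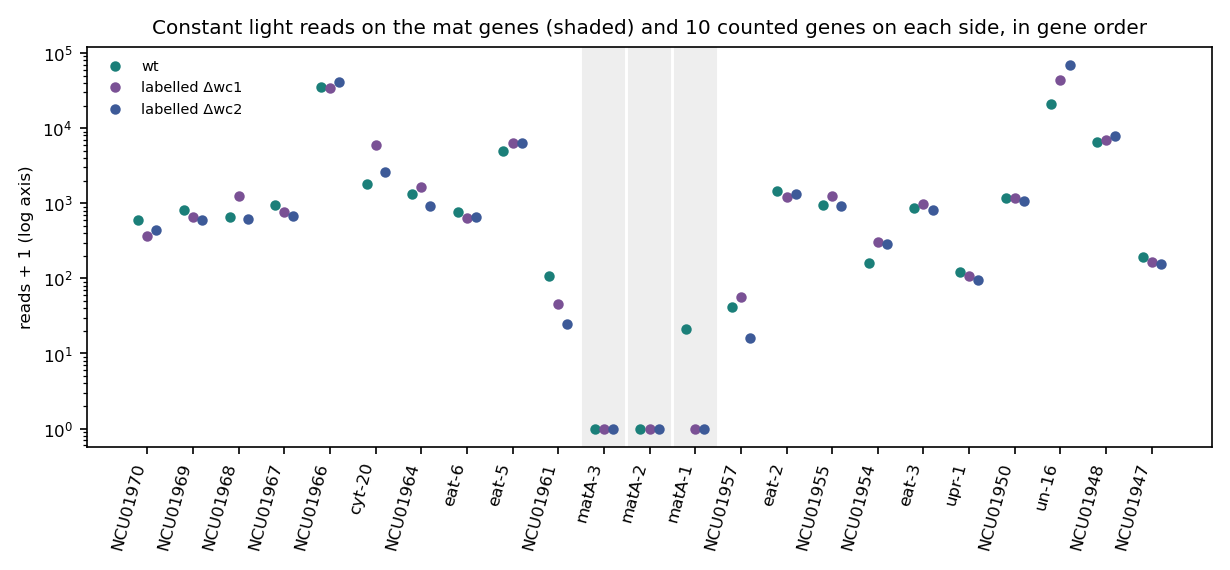
Reads plus 1 (log axis) in constant light on *mat A-3*, *mat A-2* and *mat A-1* (shaded) and on the 10 counted genes on each side, in their order on the chromosome, for *wt* and the libraries labelled Δ*wc1* and Δ*wc2*. All 20 flanking genes have at least 15 reads in every library, whereas *mat A-1* drops from 20 reads to 0.

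*pre-1* had 199 reads in *wt*, 90 in the library labelled Δ*wc1* and 71 in that labelled Δ*wc2*, or 7.59, 4.01 and 3.20 CPM. Both knockout libraries lay below *wt*. The ratio was 0.528 (0.407 to 0.681) in the library labelled Δ*wc1* and 0.421 (0.316 to 0.555) in that labelled Δ*wc2*, and the level of the latter relative to the former was 0.797 (0.576 to 1.10), which includes no difference. The lower level came mostly from the second of the 4 exon lines, which had 146, 54 and 42 reads in *wt* and the libraries labelled Δ*wc1* and Δ*wc2*. Its ratio to *wt* was 0.432 (0.310 to 0.594) and 0.339 (0.235 to 0.481). The first exon line had 48, 34 and 27 reads, with ratios of 0.827 (0.517 to 1.31) and 0.664 (0.398 to 1.09). Their difference was not tested.

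*pre-2* had 29 reads in *wt*, 16 in the library labelled Δ*wc1* and 9 in that labelled Δ*wc2*, or 1.11, 0.713 and 0.405 CPM. The order of the strains was the same as for *pre-1*. The ratio was 0.644 (0.327 to 1.23) in the library labelled Δ*wc1* and 0.366 (0.152 to 0.794) in that labelled Δ*wc2*, and the 2 knockout libraries differed by a ratio of 0.568 (0.221 to 1.37), which includes no difference. Between these 2 libraries, 2.02% of all genes above the minimum were over 2-fold higher and 6.57% over 2-fold lower in that labelled Δ*wc2*, and 0 of the receptor genes were called. For *ccg-4*, with 5, 2 and 2 reads, the ratio to *wt* was 0.467 (0.0445 to 2.85) and 0.472 (0.0449 to 2.88), and no difference was detectable at this depth.

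Of the 3 genes above the minimum, 1 was called lower in the library labelled Δ*wc1*, *mat A-1*, and 3 were called lower in the library labelled Δ*wc2*. Over all genes, 7.62% were over 2-fold lower and 15.6% over 2-fold higher in the former, and 8.3% and 10.4% in the latter. The median log2 ratio of all genes above the minimum was 0.23 and 0.17, respectively, and the log2 ratios of *pre-1* were -0.92 and -1.25. Relative to the median of all genes, *pre-1* lay at -1.15 and -1.42 on the log2 scale, and *pre-2* at -0.87 and -1.62. Under median-of-ratios factors, *pre-1* was also called in the library labelled Δ*wc1*, with a ratio of 0.448. With these factors, 49.7% instead of 67.1% of all called genes were higher in the library labelled Δ*wc1*, and 41.7% instead of 55.7% in that labelled Δ*wc2*. All 5 conidiation genes were called lower in both knockout libraries, and they summed to 7786 CPM in *wt*, 110 in the library labelled Δ*wc1* and 200.3 in that labelled Δ*wc2*. The hyphal genes summed to 1845, 868 and 1169 CPM, but *hex-1*, which makes up most of this sum, and *so* differed in opposite directions, with ratios of 0.455 and 2.05 in the library labelled Δ*wc1* and 0.624 and 1.62 in that labelled Δ*wc2*. The sexual development genes summed to 434, 243 and 269 CPM, which was mostly *asd-1* (ratios of 0.481 and 0.563), whereas *fsd-1* was higher (3.59 and 2.80) and *per-1* had 3, 10 and 3 reads. The conidiation sum also rose within 30 min of light in the strand-specific libraries, so a difference in it cannot be read as one in cell type. The part of the conidiation, hyphal and sexual development genes in the receptor values was not tested.

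The strand-specific and the constant light libraries were prepared with different kits and normalized separately, so their levels are only set side by side. Per length, *pre-1* had between 0.734 and 1.26 RPKM in the strand-specific libraries and 2.23 in *wt* in constant light, and *pre-2* between 0.224 and 0.942 and 0.631. *mat A-1* had between 0.391 and 0.879 RPKM and 0.508 in *wt* in constant light. In constant light, *pre-1* lay above *mat A-1* by 4.39 times (2.77 to 7.34) and above *pre-2* by 3.53 times (2.38 to 5.41), whereas *mat A-1* and *pre-2* again could not be ordered (0.804, interval 0.431 to 1.47).

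The genes downstream of the receptors were present in all libraries. Of 12 signalling genes, which encode the G protein subunits GNA-1, GNA-2, GNA-3, GNB-1 and GNG-1, the kinases STK-4, NRC-1, MEK-2 and MAK-2, the adaptor encoded by NCU00455, the scaffold HAM-5 and the transcription factor PP-1, all 12 passed the minimum on the sense strand in each comparison. At 30 min, 1 was called lower, the Gα gene *gna-2*, with 628 reads in the dark and 508 at 30 min and a ratio of 0.487 (0.433 to 0.549), and 0 were called higher. This call was lost under median-of-ratios factors, which multiply every ratio at 30 min by 1.11. At 60 and 120 min on the sense strand and in both knockout libraries, 0 of the 12 were called in either direction. Over all genes, the shares called higher and lower were 5.65% and 7.25% at 30 min, 6.27% and 5% at 60 min, 4.62% and 2.23% at 120 min, 15.6% and 7.62% in the library labelled Δ*wc1*, and 10.4% and 8.3% in that labelled Δ*wc2*. The median log2 ratio of the 12 was -0.31, -0.20 and 0.01 after 30, 60 and 120 min of light, against -0.16, -0.07 and 0.04 for all genes. In the Δ*wc1*-labelled and the Δ*wc2*-labelled library it was 0.48 and 0.20, against 0.23 and 0.17 for all genes. The MAPK gene *mak-2* had 6357 reads in *wt* in constant light, 9082 in the library labelled Δ*wc1* and 8634 in that labelled Δ*wc2*. On the antisense strand, 2, 3 and 1 of the 12 were above the minimum after 30, 60 and 120 min of light. Of these, 1 was called higher at each time, beside 21.9%, 26.6% and 21.6% of all genes, and 0 were called lower. Single members lay between 0.679 (*gna-1*) and 1.92 (NCU00455) times the *wt* level in the library labelled Δ*wc1*, and between 0.787 (*stk-4*) and 1.78 (NCU00455) in that labelled Δ*wc2*, whereas the ratios of both receptors were lower than those of the 12 in both libraries, that of *pre-2* in the library labelled Δ*wc1* with an interval that includes no difference.

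Of 7 regulators of sexual development and of incompatibility between the mating types, *sub-1* was called higher at each light time. This GATA-type transcription factor gene, which is required for the development of fruiting body precursors, had 440, 4291, 2704 and 1599 reads in the libraries of 0, 30, 60 and 120 min, with ratios of 5.88 (5.33 to 6.50), 3.05 (2.76 to 3.38) and 3.69 (3.32 to 4.11). In constant light it was called higher in both knockout libraries, with 128 reads in *wt*, 318 in the library labelled Δ*wc1* and 266 in that labelled Δ*wc2*. The Ndt80-like regulator gene *fsd-1* had 281, 865 and 666 reads in the same order, with ratios of 3.59 (3.14 to 4.13) and 2.80 (2.43 to 3.23). At 60 min it was called lower, with 642 reads against 663 in the dark and a ratio of 0.481 (0.431 to 0.537), a call that was lost under median-of-ratios factors, which multiply the ratios at this time by 1.05. The heterokaryon incompatibility genes *tol* and *vib-1* and the corepressor genes *rco-1* and *rcm-1* were called in 0 of the 5 comparisons on the sense strand or in constant light. Of the list, 6 genes were above the minimum on the sense strand and 7 in constant light, and 1 was called higher at each light time, 1 lower at 60 min and 2 higher in each knockout library, beside the shares of all genes given for the signalling genes (15.6% higher in the library labelled Δ*wc1*, for example). On the antisense strand, 3, 5 and 2 genes of the list were above the minimum after 30, 60 and 120 min. Of these, 2, 3 and 1 were called higher and 0 lower, beside 21.9%, 26.6% and 21.6% of all genes called higher.

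*fmf-1*, an HMG-box gene required for fertility with either mating type, had 0, 0, 0 and 2 sense reads at 0, 30, 60 and 120 min, but 91, 141, 190 and 95 antisense reads. Its reads in these libraries came almost only from the antisense strand, and 10.8% of all genes had more antisense than sense reads there. In constant light, 205 reads were counted on *fmf-1* in *wt*, 209 in the library labelled Δ*wc1* and 151 in that labelled Δ*wc2*. The sources used here do not state whether strand was used for these counts.

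**Figure D5:**
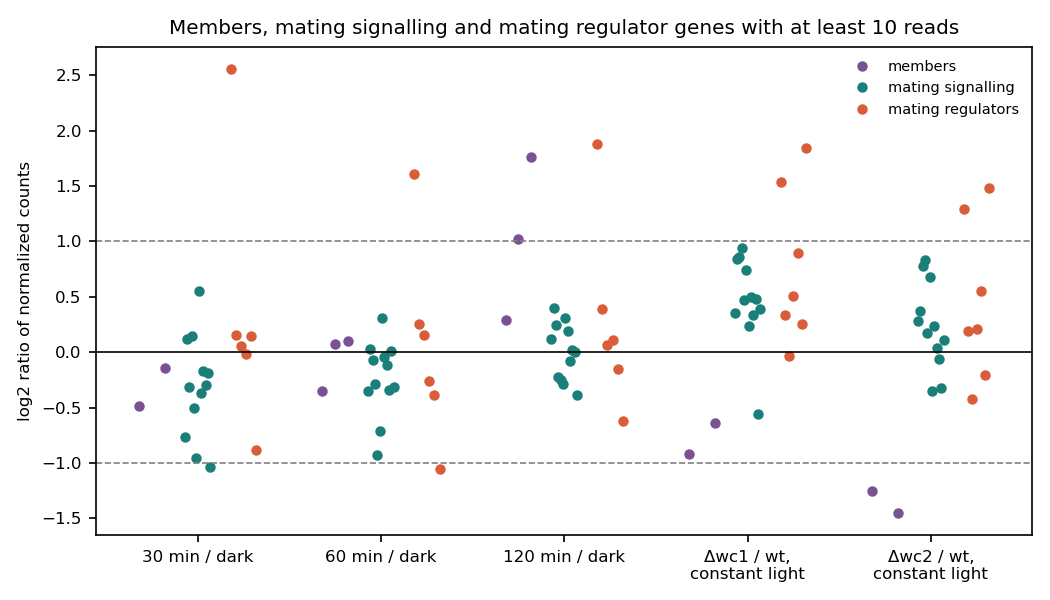
Log2 ratios of normalized counts in 5 comparisons for the genes with at least 10 reads among the 6 mating genes, 12 signalling genes and 7 regulators, with 1 point per gene and dashed lines at 2-fold. *mat A-1*, at 0 reads in both knockout libraries, has no point there; the 2 receptors lie below 0 in both, while the medians of the signalling genes are 0.48 and 0.20.

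*pre-1* was the only one of the 6 genes with at least 100 sense reads in total, and its pattern over the 7 libraries was compared with that of 7721 other genes with at least 50 reads in each set. The measure was the Euclidean distance of log2 CPM, with 1 read added, after centering within the 4 strand-specific and within the 3 constant light libraries. NCU00782 was closest at a distance of 0.17, followed by NCU00723 at 0.22 and NCU03374 at 0.24, against a median of 1.37. NCU00723 had 186, 253, 360 and 242 sense reads at 0, 30, 60 and 120 min and 409, 191 and 149 reads in *wt* and the libraries labelled Δ*wc1* and Δ*wc2*. In the same constant light libraries, NCU00782 had only 31, 13 and 11 reads and NCU03374 61, 29 and 21. The places of these genes in the order thus rest on few reads.

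A noncoding transcript lies beside *mat A-1*. In the deposited list of 1060 lincRNA genes, the nearest entry to *mat A-1* is on chromosome I from 1862800 to 1863150 in NC12 coordinates, 606 bp from the end of the gene. Of the 9215 genes with a position, 4.89% have a listed lincRNA gene as near or nearer. The study accepted lincRNA genes only at a minimum distance from coding genes, so this share is limited by how the list was made. The entry beside *mat A-1* overlaps by 223 bp with NCU14009, which the RefSeq annotation of NC12 classes as ncRNA, from 1862928 to 1864066. The polysome value of the entry is 0.48 on the natural log scale, against a median of 0.69 for the list, from time points that the authors pooled. Transcripts above the polysome threshold of the study were left out of these 1060, so low polysome values follow from how the list was made. Most of those left out were later added to the catalogue of the paper, which is thus larger. The nearest entry to *pre-1* is 1933 bp away, that to *ccg-4* 11.1 kb and that to *pre-2* 51.9 kb.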

How the data were processed

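The strand-specific reads were mapped to NC10 with Bowtie2 2.1.0 and counted with HTSeq by the authors, who deposited raw counts per gene and strand. Reads aligned to several places were not assigned, and HTSeq's summary rows (9.03% to 14.5% of reads without a feature and 2.99% to 6.70% not unique) were left out. For constant light, the authors deposited raw counts per exon, which were summed per gene; the mapping and counting of these libraries are not given in the sources used here, and a read that spans 2 exon lines may be counted on both. The list of lincRNA genes holds a polysome value, which the authors give as the natural log (ln) of a count normalized by total and length.

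Strand-specific counts were divided by the total reads given in the methods of the study, constant light counts by their sum. Intervals of ratios are conditional binomial (Clopper-Pearson) and those of levels exact Poisson. They compare libraries, not conditions. The ratio script was tested on simulated data. RefSeq's NC12 annotation gave names, positions and lengths (introns included), the last for 9215 of 9733 counted genes.

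The text names the 6 genes, the genes of the lists that were called on the sense strand or in constant light, and the 3 genes nearest to *pre-1*. The flanking genes of the mating type locus, *mak-2*, *fmf-1* and the lincRNA entries were described after their values were seen. Members and lists were chosen with earlier results of these data known. Python 3.11.15, numpy 2.4.6, pandas 2.3.3, scipy 1.17.1 and edgeR 4.0.16 were used, the last for TMM factors. Alternatives concerned normalization, the minimum count, a pseudocount and the call rule.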

Additional observations from a re-analysis of the deposited data

How the results depend on the processing

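All 92 alternative values of the 12 member ratios stayed within the interval of the ratio as reported, and 0 of the called ratios changed direction. This says little about robustness, since the minimum count and the call rule leave a ratio unchanged. The other normalizations multiply all ratios of a comparison by between 0.848 and 1.12, which is little beside the width of these intervals. The number of members called depended on the setting. Without a minimum count it was 3 at 30 min, 1 at 60 min and 4 at 120 min on the sense strand, and 1, 1 and 2 on the antisense strand, where it had been 0, 0 and 2 and 0 at each time, and it was 2 instead of 1 in the library labelled Δ*wc1*. The calls gained in this way rest on 1 to 5 reads. With at least 50 reads it was 0 at 120 min, 0 in the library labelled Δ*wc1* and 1 (*pre-1*) instead of 3 in that labelled Δ*wc2*. At 120 min it was 1 (*pre-2*) with median-of-ratios factors, with TMM factors and with 1 read added, and 0 where the interval had to lie beyond 2-fold. In the library labelled Δ*wc1* it was 2 (*mat A-1* and *pre-1*) with each of the 3 other normalizations, and in that labelled Δ*wc2* it was 1 (*mat A-1*) where the interval had to lie beyond 2-fold.

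Over all genes, the calls at 30, 60 and 120 min numbered 1032, 908 and 543 on the sense strand, 1597, 1539 and 1109 without a minimum, and 602, 550 and 249 with the interval beyond 2-fold. On the antisense strand they numbered 887, 1046 and 656, against 3811, 4177 and 3837 without a minimum, 225, 273 and 127 with at least 50 reads, and 163, 196 and 88 with the interval rule. In the libraries labelled Δ*wc1* and Δ*wc2* they fell from 1995 to 1260 and from 1600 to 879 with the interval rule. No paired analysis was possible because each condition has 1 library. Levels per coding length were not calculated, since no protein sequences were used here. Depth limits *mat A-2*, *mat A-3* and *ccg-4* most, where 3 sense reads were not reached in any library of the light course.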
